A study of Rattus norvegicus with 21 samples.

Results

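Fos, Egr1, Egr2, Nr4a1, Arc and Btg2 are immediate early genes, which neurons transcribe soon after they are driven to fire. They were followed in the cerebral cortex and hippocampus of male SD rats. The set was given as a list of 8 Ensembl rat gene IDs with their symbols, and 6 of these had a row among the 30560 IDs of the normalized count table. Junb and Dusp1 were not analysed here. The rows are ENSRNOG00000008015 (Fos), ENSRNOG00000019422 (Egr1), ENSRNOG00000000640 (Egr2), ENSRNOG00000007607 (Nr4a1), ENSRNOG00000043465 (Arc) and ENSRNOG00000003300 (Btg2). The table itself holds IDs only, so the symbols rest on that list.

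All rats were wild type, entered the study at 4 weeks of age and were acclimated for 2 weeks to a weight of about 200 g. Control rats stayed in normal air. The others were exposed in a hypobaric chamber to hypobaric hypoxia, that is, the low pressure and low oxygen of high altitude. After a first hold of 1 min at 10000 ft, a simulated 28000 ft was held for 5 min. There were 6 cycles at intervals of 3 days. Tissue was collected at 24 h or at 48 h from the final cycle. Of the 12 rats, 8 were exposed and 1 was lost. RNA came from 50 mg pieces of whole tissue, so fewer cells of a type and less RNA per cell cannot be told apart. Cortex had 4 control libraries, 3 at 24 h and 3 at 48 h, and hippocampus the same numbers.

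Immediate early genes need no new protein for their induction. Neuronal firing and calcium entry activate kinases that act on the factors SRF and CREB, already bound near these genes, and the transcripts appear within minutes and are short lived. Their level in a dissected brain therefore follows recent activity, including that around the time of sampling. Fos, Egr1, Egr2 and Nr4a1 encode transcription factors, Arc encodes a synaptic protein that takes part in the removal of AMPA receptors, and Btg2 encodes an antiproliferative cofactor of transcription and mRNA decay.

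Several libraries stood apart, as judged without these genes. Hippocampus control 1 held 4654096 reads in genes, against 11214566 to 19304803 in the other 19 libraries. Each library was also placed on a scale between the tissues, where 0 is the cortex median and 1 the hippocampus median. The scale used genes at least 4-fold apart between the tissues, without the 6 genes described here. Among cortex libraries, control 3 had a position of 0.42 and 24 h replicate 3 one of 0.26, while the 8 others ranged from -0.10 to 0.11. Among hippocampus libraries, control 2 was placed at 0.30 and 24 h replicate 2 at 0.46. Apart from control 1, at 0.85, the remaining 7 ranged from 0.86 to 1.23. Many of the results are also given without these 5 libraries. Tissue labels were not checked against known marker genes, because the IDs could not be paired with names.

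The clearest pattern was the difference between the tissues. In control rats all 6 genes were higher in cortex than in hippocampus, by 2.75-fold for Fos, 3.10-fold for Btg2, 3.97-fold for Egr1, 5.00-fold for Nr4a1, 5.30-fold for Arc and 6.78-fold for Egr2 in the ratio of group means. Without the 5 libraries these ratios were 2.06 for Fos, 2.97 for Btg2, 10.4 for Egr1, 11.6 for Nr4a1 and 15.7 for Arc, while Egr2 then rested on 1 read in each of the 2 hippocampus controls that remained. All 6 passed in limma at an adjusted p under 0.05, where 1.25% of the 15017 genes tested were called higher in cortex. At 48 h 5 of the 6 passed, all but Fos, against 2.87% of genes. At 24 h none passed, against 0.34% of genes, though the fitted difference had the same sign for all 6. A fitted mean higher in cortex was found in 51.8% of all genes in controls, 50% at 24 h and 48.5% at 48 h. The members' median log2 difference, hippocampus minus cortex, was -2.43 in controls, -1.93 at 24 h and -2.79 at 48 h. The median over all genes tested was -0.03, 0.00 and 0.02. All values of change in this account are differences of log2(normalized count + 1), except those credited to edgeR or DESeq2.

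**Figure D1:**
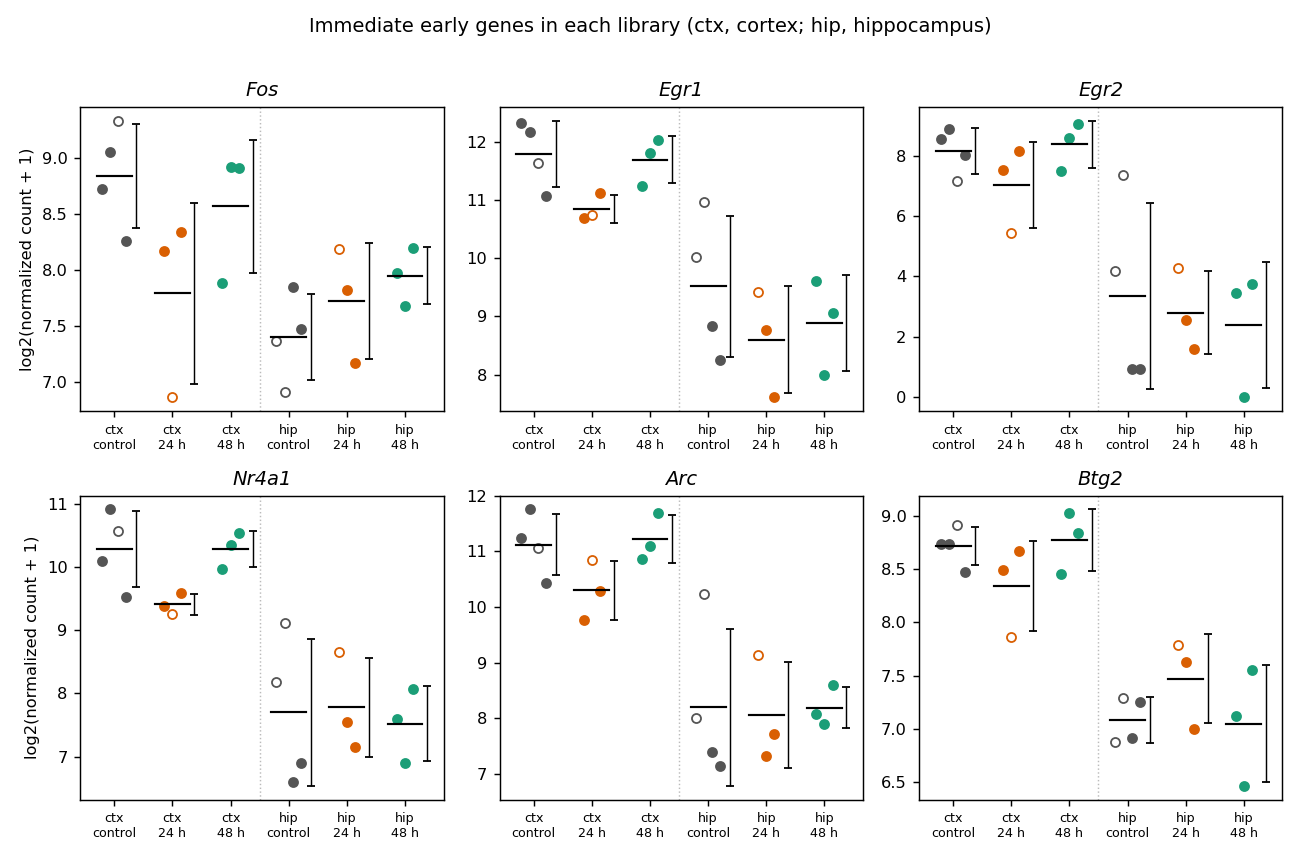
Log2(normalized count + 1) of the 6 genes in each of the 20 libraries, by tissue (ctx, cortex; hip, hippocampus) and exposure group. Horizontal lines are group means, bars beside them are 1 SD of the log2 values, and open symbols are the 5 libraries that stand apart; Egr2 in hippocampus spans from 0 to 164.8 normalized counts.

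Egr2, a zinc finger transcription factor, showed the widest gap. In cortex it had 376.5, 470.4, 140.4 and 260.4 normalized counts in controls 1 to 4, then 183, 42.4 and 286.1 in 24 h replicates 2 to 4, and 180.7, 383.8 and 522.6 in 48 h replicates 1 to 3. In hippocampus it had 17.3, 164.8, 0.926 and 0.908 in controls 1 to 4, 18.3, 4.83 and 2.00 in 24 h replicates 2 to 4, and 9.89, 0 and 12.3 in 48 h replicates 1 to 3. Hippocampus control 2 was the single hippocampus library within the range of cortex. The other 9 hippocampus values rested on 0 to 17 reads, and 0 reads in 48 h replicate 2 allow a level of up to 2.43 (a limit of 3 reads, for counting error only). The log2 difference between the control tissues was -4.79 (SE 1.19, limma adjusted p = 0.0383), lower in hippocampus than in every cortex control in 3 of 4 libraries. It was -4.24 (SE 1.37, limma adjusted p = 0.122) at 24 h and -5.98 (SE 1.37, limma adjusted p = 0.0185) at 48 h. In these last 2 groups every hippocampus library lay below every cortex library. Without the libraries that stand apart the control difference was -7.55 (limma adjusted p = 0.000273), so its size moved with them.

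Arc, the synaptic effector of the set, had 2414, 3453, 2131 and 1374 normalized counts in cortex controls 1 to 4. Cortex held 871.6, 1834 and 1243 in 24 h replicates 2 to 4 and 1851, 2193 and 3306 in 48 h replicates 1 to 3. In hippocampus the values were 254.6, 1207, 167.5 and 139.9 in controls, 563.7, 158.4 and 209.6 in the 24 h libraries, and 269.2, 237.8 and 385.7 in the 48 h libraries, by replicate as above. The highest hippocampus values were again control 2 and 24 h replicate 2, which lie between the tissues on the scale above. The ranges of the tissues did not overlap in any exposure group. The log2 difference was -2.93 (SE 0.54, limma adjusted p = 0.0119) in controls, -2.24 (SE 0.63, limma adjusted p = 0.0732) at 24 h and -3.02 (SE 0.63, limma adjusted p = 0.0124) at 48 h. For Arc it was -3.87 in controls and -2.51 at 24 h with the libraries that stand apart left out.

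Egr1, also known as Zif268, is a zinc finger factor of the same family as Egr2. It had 5138, 4617, 3184 and 2152 normalized counts in cortex controls 1 to 4, with 1651, 1715 and 2231 in the cortex 24 h libraries and 2440.5, 3594 and 4208 in those of 48 h. In hippocampus it had 1036, 2004, 458.1 and 302.5 in controls 1 to 4, 685.5, 433.6 and 194.7 at 24 h, and 783.4, 253.1 and 529.9 at 48 h. Each hippocampus library lay below each cortex library of its exposure group, with log2 differences of -2.28 (SE 0.52, limma adjusted p = 0.0259) in controls, -2.25 (SE 0.60, limma adjusted p = 0.0599) at 24 h and -2.82 (SE 0.60, limma adjusted p = 0.0128) at 48 h. For Egr1 it was -3.31 in controls and -2.72 at 24 h with the libraries that stand apart left out.

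Nr4a1, the orphan nuclear receptor Nur77, had 1093, 1923, 1526 and 738.2 normalized counts in cortex controls. Cortex held 668.4, 612.3 and 768.6 at 24 h, then 1002, 1297 and 1485 at 48 h. In hippocampus it had 289.1, 552.3, 96.3 and 119 in controls, 403.1, 185.4 and 140.8 at 24 h, and 193.4, 118.1 and 267.2 at 48 h. Its tissues did not overlap in any exposure group either. The log2 difference was -2.58 (SE 0.47, limma adjusted p = 0.0118) in controls, -1.63 (SE 0.54, limma adjusted p = 0.134) at 24 h and -2.76 (SE 0.54, limma adjusted p = 0.00989) at 48 h. For Nr4a1 it was -3.42 in controls and -2.14 at 24 h with the libraries that stand apart left out.

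Btg2 had the lowest coefficient of variation of the 6 genes in control cortex (12.1%) and control hippocampus (15.3%). It had 425.9, 426.1, 479.4 and 355.1 normalized counts in cortex controls, with 359.6, 231.5 and 404.7 in the cortex 24 h libraries and 349.6, 518.6 and 455.2 in those of 48 h. In hippocampus it had 116.5, 155.7, 119.4 and 151.7 in controls, 219.9, 197 and 126.8 at 24 h, and 138.4, 87.3 and 186.7 at 48 h. The tissues were separate in each exposure group, and the gap between the ranges was narrow at 24 h. The log2 difference was -1.63 (SE 0.25, limma adjusted p = 0.00748) in controls, -0.87 (SE 0.29, limma adjusted p = 0.134) at 24 h and -1.72 (SE 0.29, limma adjusted p = 0.00909) at 48 h. For Btg2 it was -1.57 in controls and -1.27 at 24 h with the libraries that stand apart left out.

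Fos, which pairs with Jun proteins to form the AP-1 factor, differed least between the tissues. It had 420.6, 529.2, 644.2 and 305.2 normalized counts in cortex controls, with 287, 115.7 and 323 in the cortex 24 h libraries and 235.5, 482 and 480.0 in those of 48 h. In hippocampus it had 164, 119.5, 229.5 and 177.1 in controls, 289.9, 226 and 142.8 at 24 h, and 250.5, 204.6 and 291.8 at 48 h. The tissues were separate in controls and overlapped at 24 h and 48 h. The log2 difference was -1.44 (SE 0.35, limma adjusted p = 0.0343) in controls, -0.07 (SE 0.40, limma adjusted p = 0.972) at 24 h and -0.62 (SE 0.40, limma adjusted p = 0.410) at 48 h. Without the libraries that stand apart it was -1.01 (limma adjusted p = 0.0529) in controls and -0.76 (limma adjusted p = 0.178) at 24 h, where Fos in cortex replicate 3 (115.7) was the lowest of all cortex values.

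**Figure D2:**
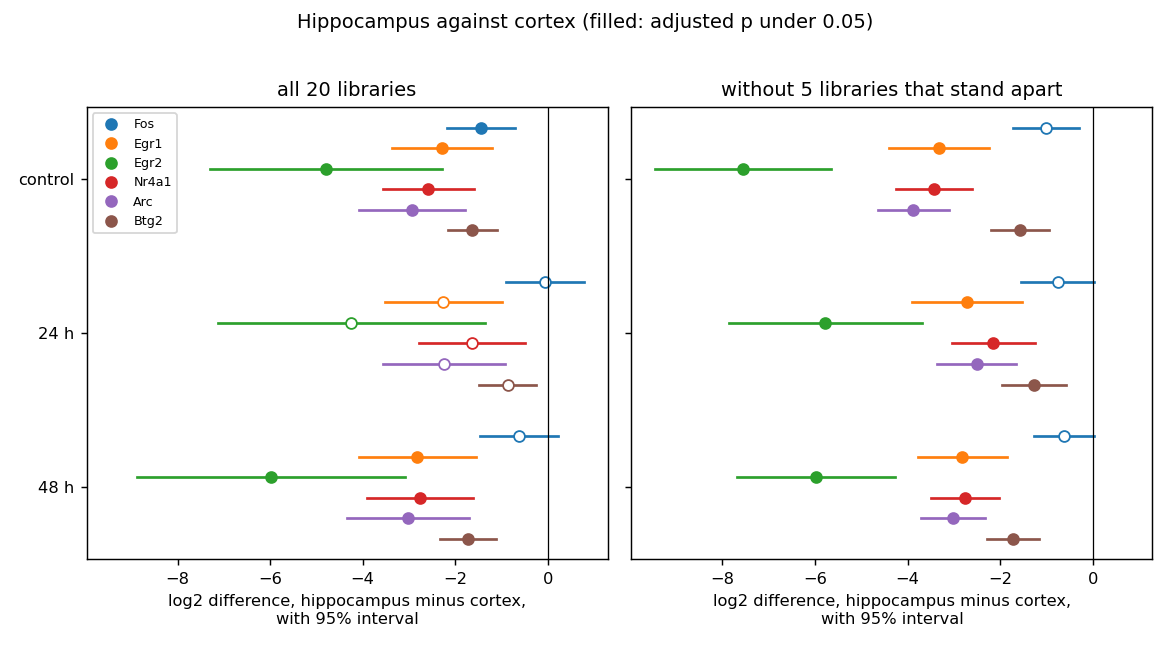
Log2 difference of hippocampus minus cortex with its 95% interval for the 6 genes, by exposure group, from all 20 libraries (left) and without the 5 libraries that stand apart (right). Filled symbols have a limma adjusted p under 0.05: 6, 0 and 5 genes on the left and 5 in each group on the right.

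Without the 5 libraries that stand apart, 5 of the 6 genes passed in each of the 3 exposure groups, and Fos was the exception each time. Most of these libraries had been set apart for lying between the tissues, so leaving them out by itself favours wider tissue differences. Calls were then more common among all genes too, with 9.12% called higher in cortex in controls, 7.79% at 24 h and 14.9% at 48 h. The tissues were separate, with cortex higher, for 6 of the 6 genes in controls, 6 at 24 h and 5 at 48 h. The same held for 26.6%, 28.8% and 21.7% of all genes in these groups of 2 or 3 libraries. With all libraries 5 genes had no overlap in controls, where 4.38% of all genes were separate and higher in cortex, 5 at 24 h against 14.1%, and 5 at 48 h against 21.5%. The calls also depended on which libraries were in the fit. In controls 2 members passed without cortex control 2, where 28 of 15025 genes were called higher in cortex. Leaving out cortex control 1 or hippocampus control 4 gave 3 members, beside 48 of 15029 and 54 of 15017 genes. Leaving out hippocampus control 3 gave 4, beside 62 of 15022. Leaving out cortex control 3 or 4 gave 5, beside 363 of 14976 and 60 of 15021. All 6 passed without hippocampus control 1 or 2, beside 204 of 14939 and 709 of 15011. At 48 h 0 passed without cortex replicate 3, where 2 of 15017 genes were called higher in cortex. Leaving out cortex replicate 2 or hippocampus replicate 2 gave 1, beside 45 of 15023 and 24 of 15010 genes. The other 48 h runs that left out 1 library kept 5. At 24 h 2 passed without hippocampus replicate 2, beside 117 of 15005 genes called higher in cortex. A fit of the control groups alone called 1 member, beside 22 of 15015 genes called higher in cortex. At 24 h DESeq2 called 4 members and 1.43% of all genes higher in cortex, and limma with library weights called 5 members and 10.8% of all genes, where limma without weights and edgeR called 0 members. A limma fit that treated libraries of the same group and number as pairs called 0 members in controls, 0 at 24 h and 5 at 48 h. It called 2, 0 and 338 of 15017 genes higher in cortex, and the labels do not name such pairs. In every alternative run the sign stayed with cortex for every gene in controls and at 48 h.

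The promoters of Egr1, Egr2, Nr4a1 and Btg2 are shown because these genes shared the direction of the tissue difference and SRF and CREB are known to act at such promoters. They are RefSeq sequences of the 250 bases before the annotated start in build GRCr8, read 5′ to 3′ on the strand of the gene. Capitals mark CArG boxes, the sites of SRF, and the core letters CGTCA or TGACG of the cAMP response element (CRE), the site of CREB, in either direction. Fos and Arc had no entry in the promoter table.
Egr1, chr18:26736828-26737077, plus strand: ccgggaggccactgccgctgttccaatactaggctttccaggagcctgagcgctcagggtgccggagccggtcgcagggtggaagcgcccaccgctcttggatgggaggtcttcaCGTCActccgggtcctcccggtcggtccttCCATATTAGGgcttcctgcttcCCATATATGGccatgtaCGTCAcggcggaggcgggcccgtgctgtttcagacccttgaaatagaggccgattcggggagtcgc
Egr2, chr20:21054442-21054691, minus strand: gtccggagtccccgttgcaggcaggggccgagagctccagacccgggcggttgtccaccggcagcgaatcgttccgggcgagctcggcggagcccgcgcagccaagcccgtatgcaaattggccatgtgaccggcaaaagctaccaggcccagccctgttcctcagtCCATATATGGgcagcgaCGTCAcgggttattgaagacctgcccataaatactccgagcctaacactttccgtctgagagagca
Nr4a1, chr7:134259888-134260137, plus strand: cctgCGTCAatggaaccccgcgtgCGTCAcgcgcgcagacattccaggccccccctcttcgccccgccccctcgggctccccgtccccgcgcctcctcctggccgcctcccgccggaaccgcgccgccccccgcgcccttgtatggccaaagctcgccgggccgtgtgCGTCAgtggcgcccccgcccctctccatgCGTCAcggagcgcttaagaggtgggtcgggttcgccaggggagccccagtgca
Btg2, chr13:48087691-48087940, minus strand: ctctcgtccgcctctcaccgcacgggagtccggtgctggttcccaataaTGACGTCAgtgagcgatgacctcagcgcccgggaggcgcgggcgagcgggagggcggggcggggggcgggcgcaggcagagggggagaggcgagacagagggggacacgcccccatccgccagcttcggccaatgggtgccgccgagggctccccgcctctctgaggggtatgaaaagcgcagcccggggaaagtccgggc
Egr1 held 2 CArG boxes and 2 CRE cores, Egr2 1 of each, and Nr4a1 4 CRE cores. Btg2 held the full palindrome TGACGTCA, which contains 2 overlapping cores. Among 33469 rat promoter windows of the same length, 1.5% held a CArG box, 18.2% at least 1 CRE core and 1.59% the full palindrome. A CArG box at 83 to 74 bases before the start, with a CRE core at 66 to 62, was found in both Egr1 and Egr2. These matches describe the letters of the windows and were tested neither for binding nor for a part in the tissue difference.

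In cortex at 24 h all 6 genes had lower means than in control rats, and none passed the test. The ratio of control to 24 h means was 2.02 for Egr1, 1.96 for Fos, 1.93 for Nr4a1, 1.83 for Egr2, 1.78 for Arc and 1.27 for Btg2. The log2 change was -0.95 (SE 0.30) for Egr1, -1.05 (SE 0.41) for Fos, -0.87 (SE 0.29) for Nr4a1, -1.11 (SE 0.65) for Egr2, -0.82 (SE 0.34) for Arc and -0.38 (SE 0.22) for Btg2. In limma the adjusted p ran from 0.602 to 0.684, and 0% of the 14783 genes passed in either direction (1177 at an unadjusted p under 0.05). edgeR called 0 genes, and DESeq2 called 41 genes with 0 of the 6 among them. Unadjusted p were 0.011 for Egr1, 0.014 for Nr4a1, 0.027 for Fos, 0.037 for Arc, 0.112 for Btg2 and 0.119 for Egr2. A lower fitted mean was common, found in 52.9% of all genes, whose median change was -0.02 against -0.91 for the 6 members. For 0 of the 6 genes were the 24 h libraries separate from and below the controls, as they were for 4.98% of all genes. For Egr1, Fos, Nr4a1 and Arc 2 of the 3 libraries at 24 h lay below all 4 controls, and for Egr2 and Btg2 1 did.

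Cortex 24 h replicate 3 weighed on part of this pattern. Without it the change was -0.59 for Fos, -0.31 for Egr2 and -0.14 for Btg2, and -0.90 for Egr1, -0.79 for Nr4a1 and -1.09 for Arc. Without the 5 libraries that stand apart it was -0.42 for Fos, -0.65 for Egr2, -0.07 for Btg2, -0.95 for Egr1, -0.69 for Nr4a1 and -1.11 for Arc, with no gene past the threshold in limma. The change of Egr1 thus kept its size, that of Arc was larger and those of Fos, Egr2, Btg2 and Nr4a1 were smaller.

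At 48 h the cortex levels lay near those of controls. The log2 changes ran from -0.27 (95% interval -1.18 to 0.64) for Fos to 0.22 (95% interval -1.23 to 1.67) for Egr2, with a median of 0.03 over the 6 genes, and limma adjusted p were at least 0.907. The intervals do not exclude a 2-fold change for Fos or Egr2. Against 24 h all 6 fitted means were higher at 48 h, as in 52.9% of all genes, by 0.85 (SE 0.32) for Egr1, 0.87 (SE 0.31) for Nr4a1, 0.92 (SE 0.37) for Arc, 0.78 (SE 0.43) for Fos, 1.33 (SE 0.70) for Egr2 and 0.43 (SE 0.23) for Btg2. None passed in limma (adjusted p 0.393 to 0.529, with 0% of all genes called). Egr1, Nr4a1 and Arc had every 48 h library above every 24 h library, a separation found in 12.5% of all genes. With library weights these 3 genes passed in limma (adjusted p 0.0437 for Egr1, 0.0393 for Nr4a1 and 0.0271 for Arc). That fit called 1335 genes, of which 609 (4.12% of all genes) were higher at 48 h and 726 were lower. The lower means against controls and the higher means from 24 h to 48 h rest on the same 24 h libraries. Without cortex 24 h replicate 3 the difference from 24 h to 48 h was 0.32 for Fos, 0.53 for Egr2 and 0.19 for Btg2.

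**Figure D3:**
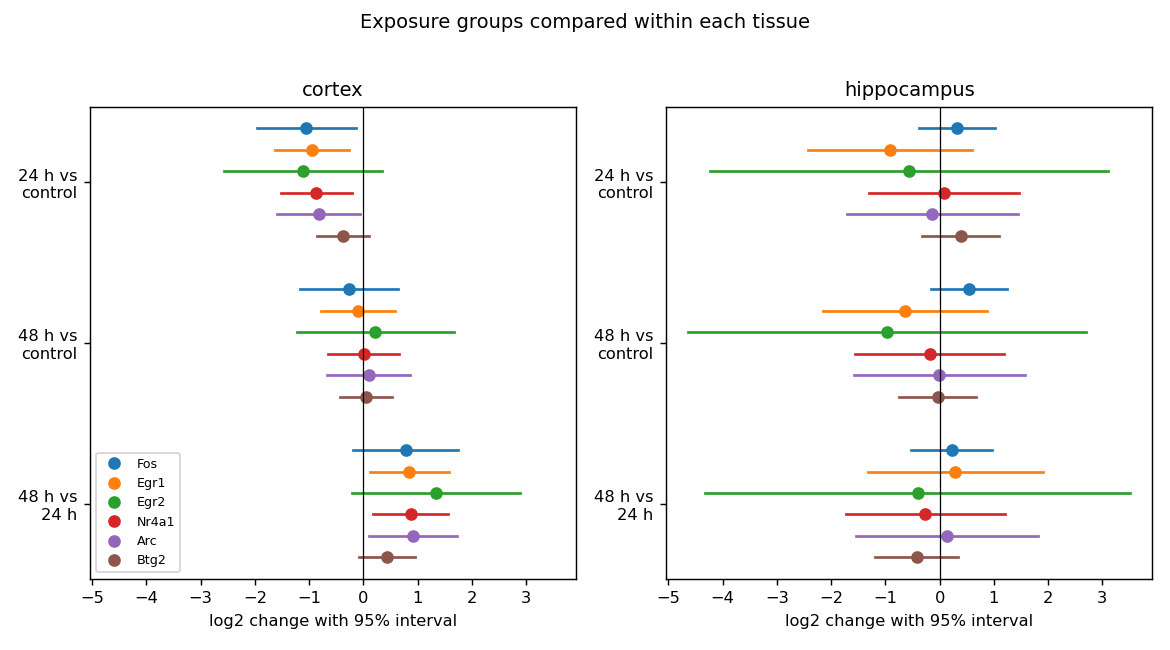
Log2 change with its 95% interval for the 6 genes in 3 comparisons of exposure groups, in cortex (left) and hippocampus (right), from limma. In cortex the points lie below 0 at 24 h and above 0 for 48 h against 24 h, and 0 of the 36 changes pass the adjusted threshold.

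In hippocampus the genes showed no common direction. At 24 h the changes ran from -0.92 (95% interval -2.43 to 0.59) for Egr1 to 0.39 (95% interval -0.33 to 1.10) for Btg2, 3 lower (as 46.9% of all genes were) and 3 higher, with limma adjusted p of at least 0.851. At 48 h they ran from -0.97 (95% interval -4.64 to 2.70) for Egr2 to 0.55 (95% interval -0.15 to 1.25) for Fos, 5 lower (as 48.3% of all genes were) and 1 higher, with limma adjusted p of at least 0.928. Between 48 h and 24 h they ran from -0.42 (95% interval -1.19 to 0.34) for Btg2 to 0.29 (95% interval -1.33 to 1.90) for Egr1, and each adjusted p was 1. The share of genes called in hippocampus was 0% of 15028 in each comparison. The SE reached 1.65 for Egr2 at 24 h and 48 h, and its 95% interval at 24 h spanned -4.23 to 3.11. Fos had a mean of 172.5 ± 45.3 (SD, n = 4) in controls, 219.6 ± 73.8 (SD, n = 3) at 24 h and 249 ± 43.6 (SD, n = 3) at 48 h, and 2 of 3 libraries at 48 h lay above all controls. Without the libraries that stand apart its means were 203.3 in 2 controls, 184.4 in 2 libraries at 24 h and 249 in 3 at 48 h, and its change at 48 h was 0.29.

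Hippocampus control 2 held 2004 normalized counts of Egr1, 164.8 of Egr2, 552.3 of Nr4a1 and 1207 of Arc, the highest hippocampus values of each gene, and 119.5 of Fos, the lowest. Without this library Arc at 48 h changed by 0.68 in place of -0.0020, and Nr4a1 by 0.29 in place of -0.18. Egr2 then fell below the mean of 10 needed for the test. Without all libraries that stand apart the changes at 48 h were 0.92 for Arc, 0.77 for Nr4a1, 0.34 for Egr1, 0.29 for Fos and -0.04 for Btg2, with no gene past the threshold in limma. At 24 h they were 0.59 for Nr4a1, 0.25 for Arc, 0.23 for Btg2, -0.17 for Fos and -0.36 for Egr1, each with a limma adjusted p of 1. Arc then had means of 153.7 in controls, 184 at 24 h and 297.6 at 48 h, and Nr4a1 had 107.6, 163.1 and 192.9.

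**Figure D4:**
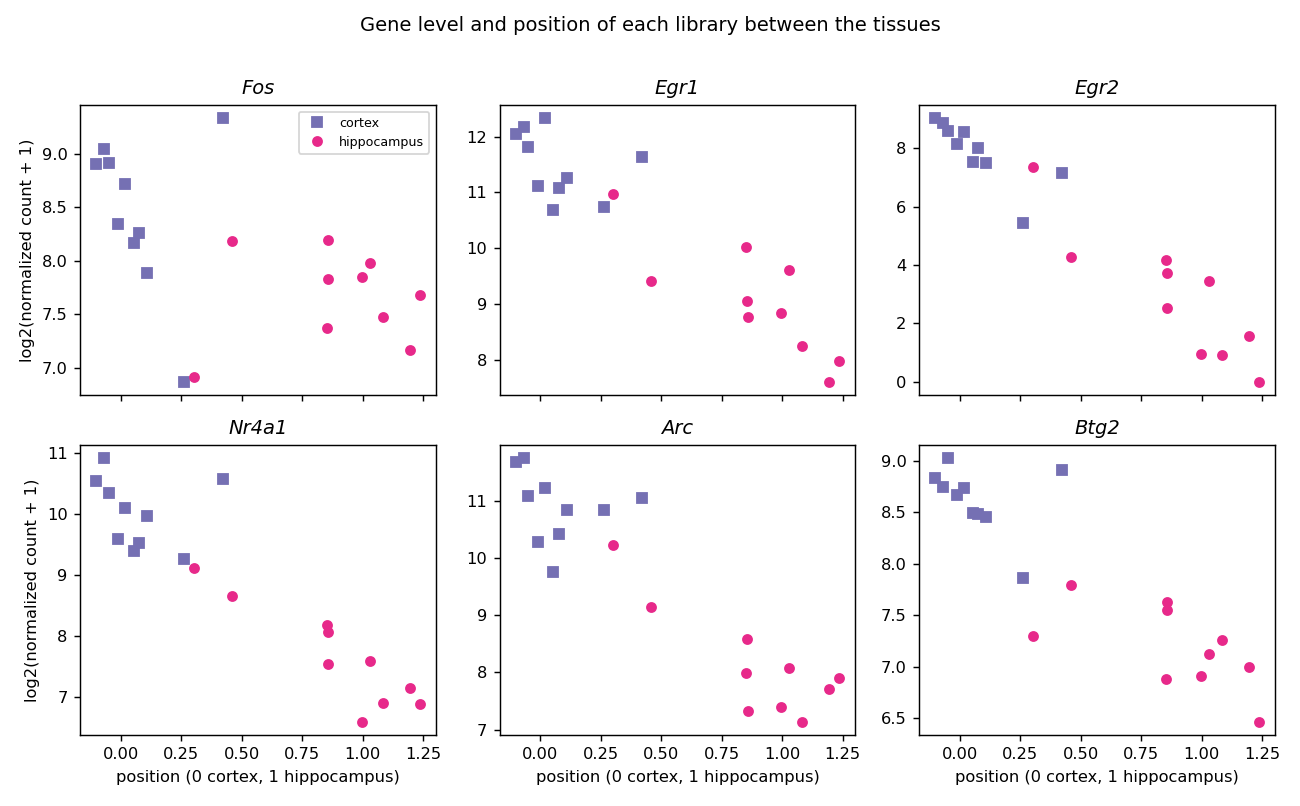
Level of each gene, as log2(normalized count + 1), against the position of the library between the tissues (0, cortex median; 1, hippocampus median), for 10 cortex (squares) and 10 hippocampus (circles) libraries. Hippocampus control 2, at 0.30, and 24 h replicate 2, at 0.46, hold the highest hippocampus values of Egr2, Nr4a1 and Arc.

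Among the libraries at the ends of this scale, Egr2 was highest in the cortex library with the lowest position, 48 h replicate 3 (522.6 normalized counts at -0.10), and was at 0 in the hippocampus library with the highest, 48 h replicate 2 (at 1.23). Fos did not follow the same order, with 644.2 in cortex control 3 at 0.42 and 119.5 in hippocampus control 2 at 0.30. The part of tissue position in the differences between exposure groups was not tested.

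Whether exposure changed a gene unequally in hippocampus and cortex was tested by an interaction. For Fos the 24 h change was higher in hippocampus by 1.37 (SE 0.53, unadjusted p = 0.019, adjusted p = 0.856 in limma), and it was 0.26 without the libraries that stand apart. The other 5 differences at 24 h ran from 0.03 for Egr1 to 0.95 for Nr4a1. Without those libraries the 24 h difference was 1.36 for Arc and 1.28 for Nr4a1, each with a limma adjusted p of 0.981. At 48 h they ran from -1.19 for Egr2 to 0.82 for Fos. None of the 12 passed in limma, edgeR or DESeq2, and 0% of 15017 genes were called in limma at either time. The SE ran from 0.38 for Btg2 to 1.82 for Egr2, and the 95% interval for Fos at 24 h ran from 0.25 to 2.49.

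The order of the 6 group means was similar from gene to gene. Control and 48 h cortex held the top 2 places for each gene. For Fos the third place was hippocampus at 48 h, with 249, just above cortex at 24 h, with 241.9. For the other 5 genes all 3 cortex groups lay above all 3 hippocampus groups. Neighbours in these orders mostly overlapped in range, in 26 of 30 pairs. The exceptions were cortex at 48 h over cortex at 24 h for Egr1 and Nr4a1, cortex at 24 h over hippocampus controls for Nr4a1, and cortex at 24 h over hippocampus at 24 h for Btg2.

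With all libraries, 9 of 12 SDs of the members within groups lay above the median of all genes. In cortex the SD within groups, on the log2 scale, was 1.00 for Egr2, 0.61 for Fos, 0.51 for Arc, 0.45 for Egr1, 0.43 for Nr4a1 and 0.30 for Btg2, and the median of all genes tested was 0.32. In hippocampus it was 2.42 for Egr2, 1.07 for Arc, 1.03 for Egr1 and 0.92 for Nr4a1, above the median of 0.53, while Fos and Btg2, both at 0.40, lay below it. Without the libraries that stand apart the cortex values were 0.60 for Egr2, 0.53 for Arc, 0.52 for Egr1, 0.48 for Nr4a1, 0.45 for Fos and 0.21 for Btg2, against a median of 0.21. The first 5 of these lay between the 85.5th and 92.4th percentiles of all genes. In hippocampus the values without those libraries were 0.74 for Egr1, 0.46 for Btg2, 0.45 for Nr4a1, 0.32 for Fos and 0.31 for Arc, against a median of 0.30. Arc then lay at the 50.7th percentile of all genes and Fos at the 53.8th, and Egr2 was under the filter.

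**Figure D5:**
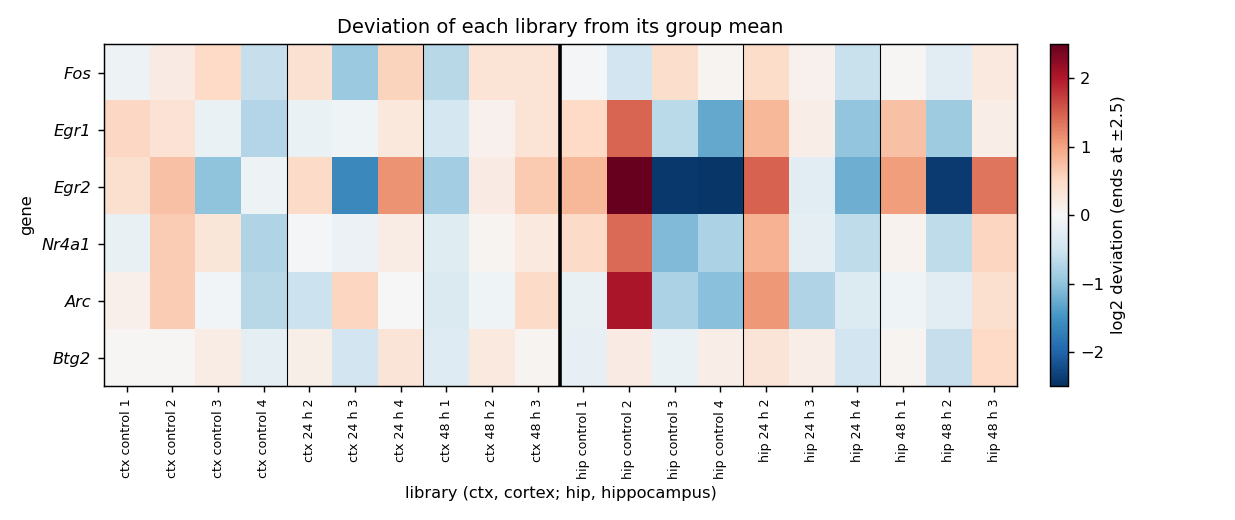
Deviation of each library from its group mean, on the log2 scale, for the 6 genes in 10 cortex (ctx) and 10 hippocampus (hip) libraries. Egr2 in hippocampus control 2, at 4.01 above its group mean, lies beyond the end of the colour scale at 2.5.

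Within groups, libraries high in one of these genes were often high in others. Pairs of other genes were not compared, so this is not shown to be particular to the set. Correlations were taken over the 10 libraries of a tissue after subtracting group means. The permutations shuffled these deviations across groups, although those of each group sum to 0. The permutation p-values are therefore approximate and may be too small. In cortex Fos varied with Btg2 (Pearson r = 0.97, permutation p = 2.0e-05, adjusted 2.0e-04 over 10 relations; Spearman rho = 0.96, permutation p = 6.0e-05, adjusted 6.0e-04), and r was 0.92 without the 2 libraries farthest from the median of Fos. The relations of Fos in cortex with Nr4a1 (r = 0.69, permutation p = 0.0232, adjusted 0.110; rho = 0.62, permutation p = 0.0595, adjusted 0.297) and Egr2 (r = 0.66, permutation p = 0.033, adjusted 0.110; rho = 0.52, permutation p = 0.133, adjusted 0.333) missed the threshold after adjustment. For Egr2 r fell to 0.16 without the 2 farthest libraries, and was 0.97 (adjusted permutation p = 5.0e-04) without cortex control 3. For Nr4a1 r was 0.79 (adjusted permutation p = 0.049) without cortex control 2 and 0.82 (adjusted permutation p = 0.0253) without cortex 24 h replicate 3.

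Over all 10 libraries Fos in cortex showed no detectable relation with Egr1 (r = 0.52, permutation p = 0.121, adjusted 0.289; rho = 0.16, permutation p = 0.656, adjusted 1) or with Arc (r = 0.07, permutation p = 0.849, adjusted 0.906; rho = -0.12, permutation p = 0.761, adjusted 1). Without the libraries that stand apart, 8 cortex libraries were left. Over these, given as a description, r with Fos was 0.94 for Egr2, 0.93 for Btg2 and 0.81 for Egr1. It was 0.81 for Nr4a1 and 0.79 for Arc. In hippocampus no relation of Fos passed. With Btg2 r was 0.50 (permutation p = 0.145, adjusted 0.289; rho = 0.55, permutation p = 0.105, adjusted 0.333), and with the other 4 genes r lay between -0.21 and 0.04, with adjusted permutation p of 0.906. Over the 7 hippocampus libraries left without those that stand apart, r with Fos was 0.82 for Egr1, 0.71 for Btg2, 0.67 for Egr2, 0.64 for Nr4a1 and 0.22 for Arc, given as a description.

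Over all hippocampus libraries Egr1, Egr2, Nr4a1 and Arc had r from 0.79 for Egr1 and Arc to 0.96 for Egr2 and Nr4a1. Without the libraries that stand apart r of Arc was 0.10 with Egr1, 0.50 with Egr2 and 0.50 with Nr4a1. These values are a description, and all 4 genes were highest in hippocampus control 2. Over all 15 pairs of members the median r was 0.56 in cortex and 0.56 in hippocampus. Without the libraries that stand apart it was 0.81 over 8 cortex libraries, where all pairs lay between 0.61 and 0.94, and 0.67 over 7 hippocampus libraries, where they lay between 0.10 and 0.98.

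Libraries with the same group and number in both tissues were compared as well, although the labels do not say that a number names the same rat. Over the 10 pairs r was 0.38 for Nr4a1, 0.35 for Arc, 0.32 for Egr1, 0.31 for Egr2, -0.10 for Fos and -0.48 for Btg2. None of the 6 passed (smallest permutation p = 0.164, smallest adjusted p = 0.463; rho between -0.36 and 0.48, smallest adjusted permutation p = 0.614). Without the 2 pairs farthest from the cortex median r was negative for all but Egr2.

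Outside the set, 2 of 14419 IDs had the highest mean correlation over both tissues with the average standardized deviation of the members. ENSRNOG00000020009 had r = 0.98 in cortex and 0.82 in hippocampus, over 10 libraries each. Its normalized counts were 304.7 ± 111 (SD, n = 4) in cortex controls, 130.8 ± 53.1 (SD, n = 3) at 24 h and 258 ± 81.5 (SD, n = 3) at 48 h. ENSRNOG00000017679 had r = 0.86 and 0.93, with 520.5 ± 122 (SD, n = 4), 325.4 ± 64.8 (SD, n = 3) and 438.2 ± 117 (SD, n = 3) in the same groups. Both were picked for their likeness among all IDs, so the values of r are no test, and the table does not pair them with names.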

How the data were processed

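Groups came from the sample titles and tissue labels. 1 of the 21 libraries carried conflicting tissue labels and was left out. Per the submitters' processing notes, fastp (0.20.0), HISAT2 (2.1.0) and featureCounts (2.0.1) were used. Build, annotation, strand setting and filter were not given in the sources used here. What the authors deposited is a normalized signal, read counts over a size factor for each library. Dividing by the smallest value above 0 gave whole reads within 0.001 for 100% of values. The labels name neither the rat behind each library nor a batch, so p-values measure the spread between these libraries, which may be technical.

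The log2 of each value plus 1 went into limma (3.58.1, R 4.3.3; intensity trend, two-sided, Benjamini-Hochberg over all genes, threshold 0.05) for genes with a mean of at least 10. This fit was also run on simulated data with the same spread for every gene and no libraries between the tissues. That run does not show how the fit performs on the present libraries. The 3 groups of a tissue shared a fit, and tissue contrasts used all 20 libraries. Alternatives were edgeR (4.0.16) and DESeq2 (1.42.0) on recovered reads, TMM scaling, a pseudocount of 0.1, no filter, library weights, other sets of libraries in the fit and the replicate block. Correlations used 100000 permutations, two-sided, whose smallest possible p is 1e-05.

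All 6 genes passed the filter in both tissues. The genes named are the listed IDs and the 2 IDs most like them. The RefSeq table (GRCr8) gave an Ensembl ID for 0 of 47357 genes, so lists of other activity-regulated genes and of cell type markers, written as symbols, could not be applied. Levels were not compared between genes, as no lengths were used. The members and lists were chosen with earlier results of these data known.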

Additional observations from a re-analysis of the deposited data

Results flagged for a closer look

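In groups of 4 libraries, the highest or lowest value was tested for its distance from the other 3, for the 6 genes and for 3 measures of the library, in control cortex and control hippocampus. Of these 18 tests, 5 marked a library, and chance gives about 1 in 20. Hippocampus control 2 stood far above the other 3 controls in Egr2 (164.8 normalized counts) and in Arc (1207 normalized counts). Hippocampus control 1 stood far below in reads in genes (4654096) and in genes with reads (15134). Cortex control 3 stood above in genes with reads (19688).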

How the results depend on the processing

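Directions of all 6 genes between the tissues in controls and at 48 h, and of all 6 in cortex at 24 h against control and at 48 h against 24 h, held in every alternative run, while calls did not, and the cause was not tested. Between the tissues in controls, 436 genes were called, against 1523 by DESeq2, 3785 with library weights, 2542 without the 5 libraries that stand apart, 94 with only the groups compared in the fit (1 member in place of 6), and 76 to 1349 leaving out 1 library (2 to 6 members). At 24 h 270 were called, against 1023 by DESeq2 (4 members), 3479 with weights (5 members), 2327 without the 5 libraries (5 members), 87 with only the groups compared and 2 to 321 leaving out 1 library (0 to 2 members). At 48 h 795 were called, against 1950 by DESeq2, 6169 with weights, 4148 without the 5 libraries, 2796 with only the groups compared and 5 to 634 leaving out 1 library (0 to 5 members). Within cortex, where limma called 0, DESeq2 called 41 at 24 h, 2 at 48 h and 145 for 48 h against 24 h. Library weights called 1 at 48 h and 1335 for 48 h against 24 h (3 members), and 5 were called there without the 5 libraries. Within hippocampus DESeq2 called 2 at 24 h, 3 at 48 h and 1 for 48 h against 24 h. Relations of Fos in cortex passing after adjustment numbered 1 to 2 leaving out 1 library.

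Signs turned in weak contrasts, and not all of these are listed here. In cortex at 48 h against control, Fos became 0.087 with weights (-0.46 to 0.072 leaving out 1 library) and Egr2 -0.12 without the 5 libraries (-0.12 to 0.66). There Egr1 (-0.34 to 0.12), Nr4a1 (-0.24 to 0.22), Arc (-0.14 to 0.31) and Btg2 (-0.072 to 0.21) also turned leaving out 1 library. In hippocampus at 24 h against control such runs turned Nr4a1 (-0.36 to 0.55), Arc (-0.68 to 0.55) and Egr2 (-1.37 to 0.047). In hippocampus, Egr1 became 0.10 at 24 h with weights, Egr2 0.48 at 48 h with weights (-1.78 to 0.23), and Egr1 -0.10 with weights for 48 h against 24 h (-0.21 to 0.73). Fos between the tissues at 24 h ran from -0.53 to 0.21. The interaction of Egr1 at 24 h became -0.10 in edgeR and -0.10 in DESeq2 (-0.39 to 0.52), and that of Egr2 at 48 h 0.50 with weights and 1.57 without the 5 libraries (-1.999 to 0.15). Leaving out 1 library, r of Fos ran from -0.24 to 0.66 with Arc in cortex, and in hippocampus from -0.62 to 0.49 with Arc, -0.36 to 0.55 with Egr1, -0.39 to 0.43 with Egr2 and -0.42 to 0.43 with Nr4a1. Over same-number pairs it ran from -0.21 to 0.74 for Arc, -0.10 to 0.57 for Egr1, -0.33 to 0.24 for Fos and -0.087 to 0.65 for Nr4a1. Egr2 could not be fitted within hippocampus without the 5 libraries or without control 2, and DESeq2 gave Arc no p there.

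Replicate numbers gave no clear pairing of the samples, which does not exclude that a number names the same rat. Over 10 pairs of libraries of both tissues with the same group and number, deviations correlated at -0.31 to 0.14 (3 over 0.1, and 3 correlated best with their own number). With the replicate block, 2 genes and 0 members were called between the tissues in controls (limma adjusted p of the members 0.0513 for Btg2 to 0.0785 for Fos) and 0 genes at 24 h. Within a tissue the block instead joined libraries of the same number across exposure groups. With that block Egr1 in hippocampus at 48 h against 24 h was -0.41.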
